A study of Mus musculus with 904 samples.

Results

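Activity-regulated immediate early genes are transcribed within minutes of synaptic input or another stimulus, before any new protein is needed. A list of 35 such genes, of 32285 genes in the table, was described in single nuclei sorted from mouse brain: 19 early transcription factors (Fos, Fosb, Fosl2, Jun, Junb, Jund, Egr1, Egr2, Egr3, Egr4, Npas4, Nr4a1, Nr4a2, Nr4a3, Klf4, Klf6, Atf3, Maff and Csrnp1) and 16 effectors (Arc, Homer1, Bdnf, Nptx2, Ptgs2, Dusp1, Dusp6, Sik1, Arl4d, Btg2, Ier2, Ier5, Gadd45b, Gadd45g, Per1 and Tiparp). The genes were listed by what they are known for, and the list was chosen with earlier results of these data known. The series holds 904 nuclei of C57Bl/6J mice, each amplified on its own with the SMART-Seq v4 chemistry from polyadenylated RNA. All mice carried an AAV of the PHP.eB capsid, given at 5e11 vg per mouse, in which the DLX2.0 enhancer, an element of forebrain GABAergic neurons, drives a fluorescent H2B histone fusion, and fluorescent nuclei were sorted 3 to 4 weeks later. The 16 constructs, by the titles, were dTomato-H2B, SYFP2-P2A-3XFLAG-H2B, SYFP2-P2A-3XFLAG-H2B-SIRLOIN, SYFP2-10aa-H2Bmod-BC and 12 with an element (BORG, 3xBORG, U7snRNAOPT, 3xU7snRNAOPT, U7snRNAOPT-3'box or 3xsmOPT) before or after SYFP2-H2B. No uninjected, stimulated or unstimulated group is labelled, so the levels below are those of the sorted nuclei as they came, and RNA made during dissection cannot be told apart from RNA made before it. No label names an animal, nuclei of 1 titled construct carry several vector codes in another label, and the library names place nuclei in 3 library pools (S40317, S40325 and S40327).

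Immediate early genes are switched on by calcium entry and by the ERK pathway, through factors that are already present in the cell, such as CREB with its CRTC coactivators, SRF with its partners Elk and Mrtf, and Mef2. The first products are transcription factors of the AP-1, Egr, Npas4 and Nr4a families, which act on later genes, and effectors that act at once: Arc and Homer1 at synapses, Bdnf as a secreted growth factor, the Dusp phosphatases as brakes on MAP kinases. In forebrain tissue such transcripts are used as a mark of neurons that were active shortly before they were taken.

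Nuclei were kept with at least 1000 genes and 10000 reads, which left 835 nuclei with 30023 to 719419 reads each (median 260274). They were put in classes by CPM, the reads of a gene scaled to the same total in every nucleus: striatal projection with Rgs9 at 20 or more and Slc17a7 under 20, excitatory with Slc17a7 at 50 or more, Sst at 100 or more, Pvalb at 20 or more with Sst under 100, Aqp4 at 20 or more and Mog at 20 or more. A single rule was met by 626 nuclei: 214 striatal projection, 134 excitatory, 114 Sst, 92 Pvalb, 35 Aqp4 and 37 Mog, while 92 met several rules and 117 met none. Lists of marker genes were summed by class. Each list holds the gene that defines its class, so part of its sum follows from the rule. The summed level of 10 striatal projection genes had a median of 9950 CPM in the striatal class and 592 to 1078 CPM in the other 5, and that of 7 oligodendrocyte genes was 48690 CPM in the Mog class. All nuclei are labelled primary visual cortex although the design text also names striatum, so the striatal class goes against its tissue label. Class and region therefore cannot be told apart in the comparisons below. The excitatory and glial nuclei were sorted with the same reporter, whose enhancer is one of GABAergic neurons, and may not stand for their classes at large. Reads of the nuclei of each class and construct were added where there were at least 3 nuclei, giving 70 sums (14 striatal, 14 excitatory, 15 Sst, 13 Pvalb, 8 Aqp4 and 6 Mog) of 663300 to 12096272 reads; these sums are the samples of every test, and p-values measure only the spread between them. Pool S40317 stood apart: 58 of its 106 nuclei (54.7%) had more than 0.3% mitochondrial reads, against 14 of 367 in S40325 and 15 of 362 in S40327, and it held 54 of the excitatory nuclei and none of the striatal ones.

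The sequences before the start sites of the members were searched for the cAMP response element, the site bound by CREB, in its full and shortened form. Windows of the 250 bases before the start site were read from RefSeq (GRCm38.p6) for the 29 of 35 members found in its table. The shortened element TGACG, or CGTCA on the other strand, was found in 26 of 46 windows of the members (56.5%) and in 17.8% of 32851 windows of all genes, and 19 of the 29 members had it in at least 1 window. The full element TGACGTCA, in which both shortened forms overlap, was found in 4 members (Arl4d, Btg2, Dusp1 and Maff), in 8.70% of their windows against 1.55% of all. The CArG box, the site of SRF, was found in Egr2 alone of the 29, in 4 of its windows (8.70% of member windows against 1.47% of all). Its windows that start at 67537619, 67537620 and 67537680 overlap and hold the same site, so the share of windows counts that site repeatedly. Sites more than 250 bases before the start were not searched. Egr1, Egr3, Arc, Ier2, Nptx2 and Sik1 had no window, so nothing is known here of their elements. These are matches of letters, windows of 1 gene can overlap, and binding was not measured. No match was found in any window of Fosl2, Jun, Jund, Klf6, Ptgs2, Dusp6, Ier5, Gadd45b, Gadd45g or Tiparp. Sequences are shown 5′ to 3′ on the strand of the gene for 6 members that each had a match, with every match in capitals:
Fos (chr12:85473640-85473889, plus strand): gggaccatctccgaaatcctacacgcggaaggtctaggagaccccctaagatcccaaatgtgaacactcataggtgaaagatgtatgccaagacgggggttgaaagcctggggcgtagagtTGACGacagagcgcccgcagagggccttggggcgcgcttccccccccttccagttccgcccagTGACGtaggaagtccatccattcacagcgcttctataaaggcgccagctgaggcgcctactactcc
Npas4 (chr19:4989972-4990221, minus strand): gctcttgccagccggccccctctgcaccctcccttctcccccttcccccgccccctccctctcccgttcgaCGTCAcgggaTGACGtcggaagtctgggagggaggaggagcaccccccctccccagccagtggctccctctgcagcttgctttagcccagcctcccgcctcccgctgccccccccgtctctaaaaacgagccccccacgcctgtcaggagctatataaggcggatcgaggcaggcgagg
Nr4a1 (chr15:101266596-101266845, plus strand): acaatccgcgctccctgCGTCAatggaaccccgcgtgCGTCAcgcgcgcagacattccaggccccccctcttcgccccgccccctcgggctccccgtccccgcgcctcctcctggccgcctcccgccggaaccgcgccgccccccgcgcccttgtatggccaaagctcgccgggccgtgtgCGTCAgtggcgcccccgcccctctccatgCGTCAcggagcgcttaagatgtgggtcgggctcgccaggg
Egr2 (chr10:67537619-67537868, plus strand): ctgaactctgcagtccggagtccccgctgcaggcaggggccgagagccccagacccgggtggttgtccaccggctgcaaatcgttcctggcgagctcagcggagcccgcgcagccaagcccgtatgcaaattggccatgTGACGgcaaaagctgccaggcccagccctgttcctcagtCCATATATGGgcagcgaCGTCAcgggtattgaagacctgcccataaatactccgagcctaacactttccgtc
Homer1 (chr13:93303507-93303756, plus strand): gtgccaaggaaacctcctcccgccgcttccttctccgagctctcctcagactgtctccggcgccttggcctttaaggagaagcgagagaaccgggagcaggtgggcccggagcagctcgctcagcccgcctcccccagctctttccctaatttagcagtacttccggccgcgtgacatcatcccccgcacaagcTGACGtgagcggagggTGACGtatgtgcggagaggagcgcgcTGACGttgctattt
Btg2 (chr1:134079156-134079405, minus strand): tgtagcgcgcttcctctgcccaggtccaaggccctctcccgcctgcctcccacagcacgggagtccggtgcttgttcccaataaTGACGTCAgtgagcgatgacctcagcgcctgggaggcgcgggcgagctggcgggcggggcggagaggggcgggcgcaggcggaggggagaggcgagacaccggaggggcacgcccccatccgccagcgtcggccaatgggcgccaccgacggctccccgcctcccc

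Excitatory and striatal projection nuclei held reads of more members than interneurons or glia did. The median nucleus had reads of 8 of the 35 members in the excitatory class, 5 in the striatal class, 2 in each of the Sst, Pvalb and Aqp4 classes and 1 in the Mog class. At least 10 members were read in 51 of 134 excitatory nuclei (38.1%) and in 35 of 214 striatal nuclei (16.4%), but in 3 Sst nuclei, 1 Pvalb nucleus and no glial nucleus. The highest number was 29 members in an excitatory nucleus and 24 in a striatal one. With each nucleus thinned to 50000 reads the medians over all pools were 7 in the excitatory and 4 in the striatal class and as before in the others. The classes also differ in genes per nucleus, with medians of 3482 excitatory, 2560 striatal, 3003 Sst, 3263 Pvalb, 1622 Aqp4 and 1144 Mog.

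**Figure D1:**
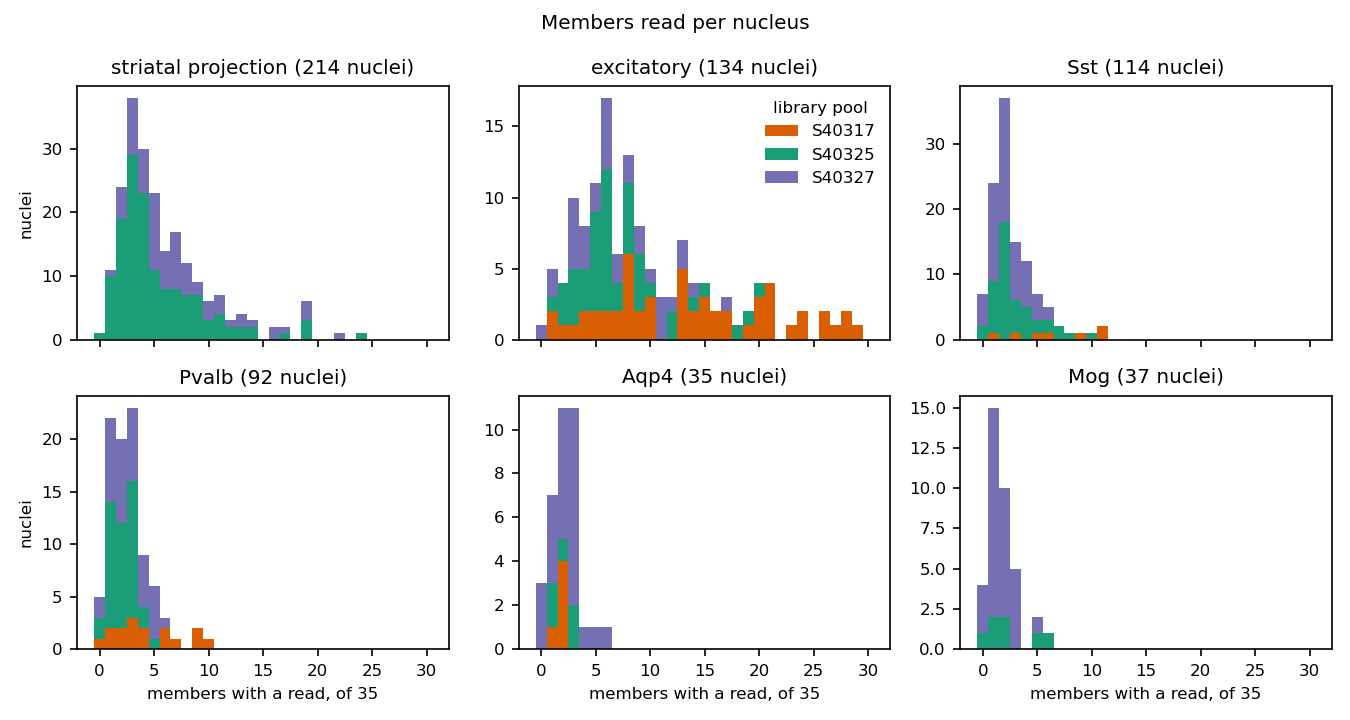
Number of nuclei (y axis) by the number of the 35 members with at least 1 read (x axis), for each of the 6 classes, stacked by library pool. Excitatory and striatal projection nuclei reach 29 and 24 members, whereas the median interneuron nucleus has 2.

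A score per nucleus, the mean over members of log2(CPM + 1), was also highest in excitatory and then in striatal nuclei. The median score of the 19 early transcription factors was 1.17 in excitatory, 0.87 in striatal, 0.36 in Sst, 0.26 in Pvalb, 0.25 in Mog and 0.14 in Aqp4 nuclei. For the 16 effectors the medians were 1.82 in excitatory, 1.14 in striatal, 0.58 in Aqp4, 0.54 in Pvalb, 0.52 in Sst and 0 in Mog nuclei. Over constructs, the medians of the transcription factor score had a mean of 1.44 ± 0.71 (SD, n = 14) in the excitatory and 0.99 ± 0.60 (SD, n = 14) in the striatal class, which differ by less than either spread. The corresponding values were 0.37 ± 0.23 (n = 15) in the Sst and 0.27 ± 0.21 (n = 13) in the Pvalb class, also closer than their spread. The score treats all members alike and gets no test. It moved with the pool in the excitatory class, from 2.18 in S40317 to 0.95 in S40325 and 0.70 in S40327, as the plot of scores by pool shows. S40317 holds no striatal nuclei, so the order of the excitatory and striatal scores over all pools mixes class with pool.

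**Figure D2:**
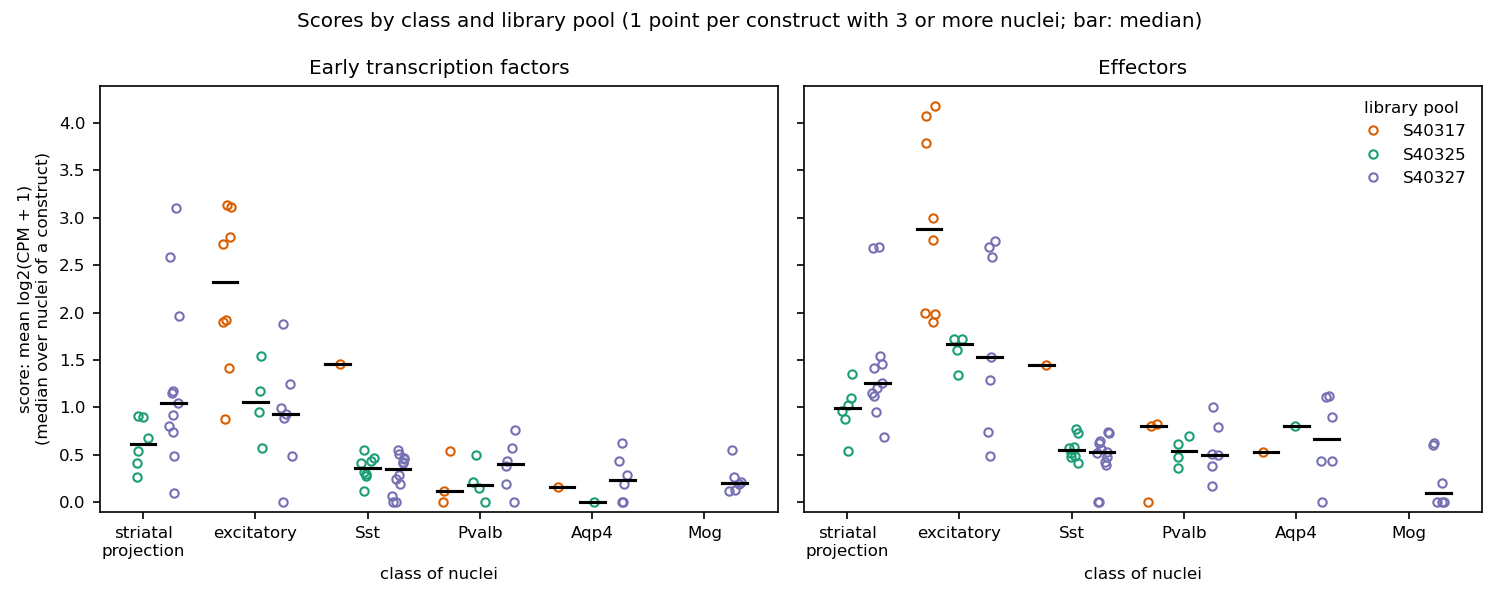
Median score of the early transcription factors and of the effectors, mean log2(CPM + 1) over members (y axis), for each construct with at least 3 nuclei (points), by class and library pool, with the median over constructs as a bar. Excitatory points of S40317 reach higher than those of the other pools, and interneuron and glial points lie low except the single Sst construct of S40317.

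**Figure D3:**
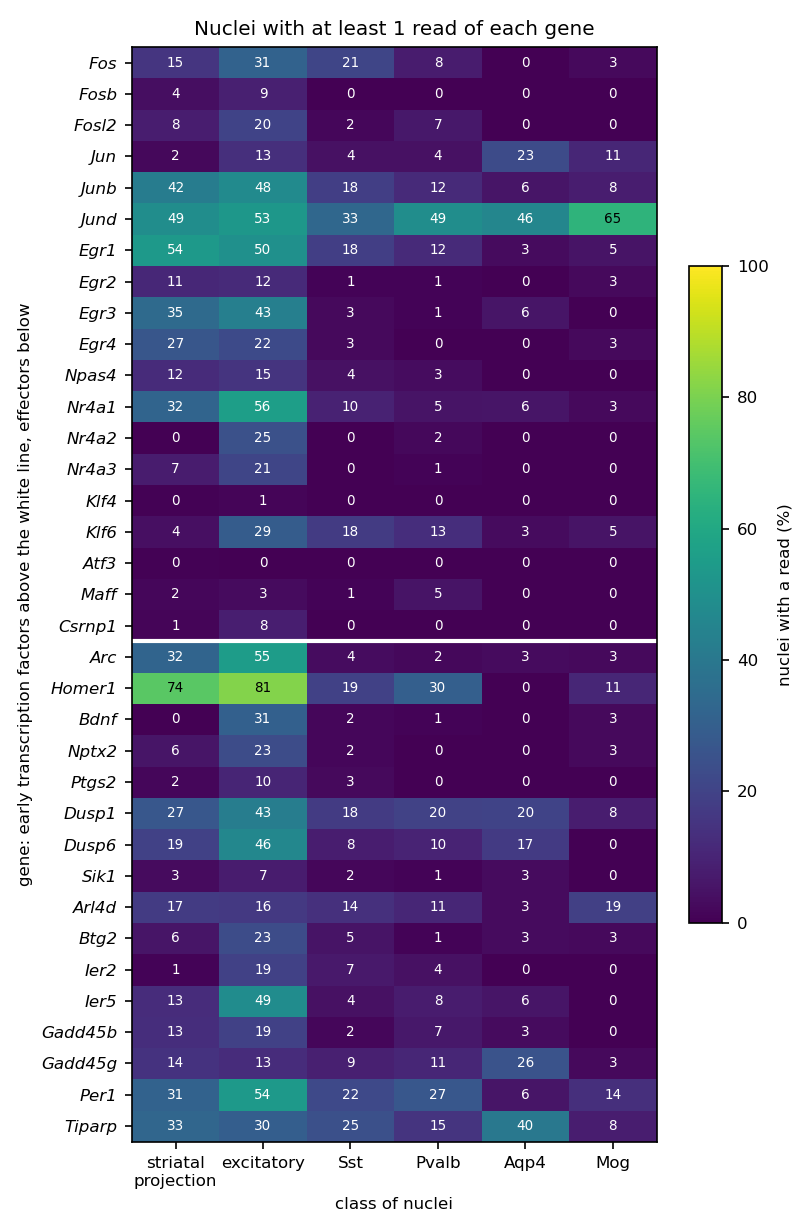
Percent of nuclei with at least 1 read of each of the 35 members (rows) in the 6 classes (columns), as a colour scale with the percent written in each cell. Homer1 was read in 81.3% of excitatory and 74.3% of striatal nuclei, and Atf3, Klf4 and Maff in few nuclei of any class.

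Compared with interneurons, excitatory nuclei had higher levels of 23 members and a lower level of none. The comparison set the 14 excitatory sums against the mean of the Sst and Pvalb classes in 1 fit of all 6 classes with construct as a block, and called a gene at an edgeR adjusted p under 0.05. Of all 13749 genes tested, 10.1% were called in either direction, 8.34% higher and 1.72% lower. The filter on low counts passed 31 of the 35 members, without Klf4, Atf3, Maff and Sik1, and it lets a gene pass through the class where it is high. All 31 had a fold change above 0, with a median log2 fold change of 4.26 against 0.39 over all genes. The median was 4.35 for the early transcription factors, of which 12 of 19 were called, and 4.03 for the effectors, of which 11 of 16 were called. Another scaling (RLE in place of TMM size factors) moved the median of all genes to 0.26 and called 22 members.

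Among the early transcription factors called were all 4 Egr and all 3 Nr4a genes, together with Fosb, Fosl2, Junb, Npas4 and Csrnp1. Egr3, a zinc finger factor, was at 0, 58.99 and 229 CPM (lowest, median and highest sum) in excitatory nuclei, where 1 of 14 sums was at 0. It was at 0 in 12 of 15 Sst sums, with a highest value of 18.04 CPM, and in 12 of 13 Pvalb sums, with a highest value of 1.14 CPM. The log2 fold change was 8.40 ± 1.11 (SE; edgeR adjusted p = 4.2e-08), and 13 of 14 constructs were higher in the excitatory class. Egr1, also known as Zif268 and the family member most used to map activity, was at 0, 308 and 685 CPM in excitatory, 0, 53.2 and 252 CPM in Sst and 0, 31.3 and 167 CPM in Pvalb nuclei. Its ranges overlap, and the class difference was 2.96 ± 0.68 (edgeR adjusted p = 0.00096; higher in 10 of 14 constructs). Egr4 was at 0, 26.3 and 216 CPM in excitatory sums, at 0 in 12 of 15 Sst sums and in all 13 Pvalb sums, so that the pooled level was 14.6 times that of the interneurons (edgeR adjusted p = 1.4e-06).

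Nr4a1, an orphan nuclear receptor also called Nur77, was present in every excitatory sum at 65.5, 116 and 632 CPM. It was at 0, 6.48 and 86.1 CPM in Sst and 0, 0 and 93.8 CPM in Pvalb sums, so the lowest excitatory sum lay above the median of both interneuron classes. The log2 fold change was 4.42 ± 0.67 (edgeR adjusted p = 3.1e-07), with all 14 constructs higher. Its relative Nr4a2 was at 0, 41.4 and 253 CPM in excitatory sums, at 0 in all 15 Sst sums and in 11 of 13 Pvalb sums, a pooled ratio of 28.8 (edgeR adjusted p = 1.2e-05). Nr4a3 was at 0, 18.2 and 204 CPM in excitatory sums and at 0 in all 28 interneuron sums (edgeR adjusted p = 3.6e-05), while 1 of 92 Pvalb nuclei, left out of the sums, had reads. Of its 28 excitatory nuclei with reads 23 were in S40317, and the call was lost without that pool. The AP-1 member Fosb was at 0, 1.80 and 62.8 CPM and was at 0 in every interneuron sum (edgeR adjusted p = 0.0037). The Fosb call was lost without S40317, without S40327, without nuclei over 0.3% mitochondrial reads and with DESeq2, and within S40325, where 0 of 47 excitatory nuclei had reads, its value was -0.34. Npas4, a factor induced by calcium entry in neurons, was at 0, 17.2 and 111 CPM in excitatory sums and at 0 in 11 of 15 Sst and 11 of 13 Pvalb sums.

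Junb, another AP-1 member, was at 20.7, 121 and 327 CPM in excitatory, 0, 34.9 and 168 CPM in Sst and 0, 6.35 and 143 CPM in Pvalb sums, and was called higher (3.16 ± 0.65, edgeR adjusted p = 0.00019). Fos was not called: it was at 0, 79.5 and 245 CPM in excitatory, 19.9, 113 and 294 CPM in Sst and 0, 0 and 248 CPM in Pvalb sums (1.23 ± 0.71, edgeR adjusted p = 0.32; higher in 8 and lower in 6 of 14 constructs). Jund, which is made at a steady level in many cells, was at 3.85, 12.1 and 30.8 CPM in excitatory, 0, 7.998 and 24.98 CPM in Sst and 1.09, 9.58 and 24.5 CPM in Pvalb sums. Jun was at 0 in 6 of 14 excitatory, 10 of 15 Sst and 9 of 13 Pvalb sums. Neither of these 2 members was called, and their ranges overlap throughout.

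The effectors with the smallest p were Arc, Ier5, Homer1, Bdnf and Dusp6. Arc, whose product removes AMPA receptors from synapses, was at 0, 188 and 1075 CPM in excitatory sums and at 0 in 12 of 15 Sst and 11 of 13 Pvalb sums, with highest values of 159 and 44.2 CPM. Its log2 fold change was 7.21 ± 0.83 (edgeR adjusted p = 2.3e-11; higher in 12 of 14 constructs). Homer1, a scaffold of the postsynaptic density with a short activity-induced form that gene counts do not separate, was at 86.5, 329.9 and 926 CPM in excitatory, 0, 36.95 and 223 CPM in Sst and 0, 35.4 and 192 CPM in Pvalb sums (3.55 ± 0.51, edgeR adjusted p = 1.2e-07). It was read in 81.3% of excitatory nuclei against 19.3% of Sst and 30.4% of Pvalb nuclei. Ier5 was at 47.2, 121 and 217 CPM in excitatory sums and at 0 in 11 of 15 Sst and 8 of 13 Pvalb sums (5.51 ± 0.72, edgeR adjusted p = 3.2e-09; higher in 14 of 14 constructs).

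Bdnf was at 0, 119.5 and 403 CPM in excitatory sums, at 0 in 13 of 15 Sst sums and at 0 in 12 of 13 Pvalb sums (7.28 ± 1.09, edgeR adjusted p = 7.8e-07). Dusp6, a phosphatase of ERK, was at 13.4, 168 and 465 CPM in excitatory sums and had a median of 0 in both interneuron classes, with highest values of 109 and 110.2 CPM (4.26 ± 0.71, edgeR adjusted p = 3.0e-06). Nptx2, a secreted pentraxin that gathers AMPA receptors, was at 0, 21.8 and 101 CPM in excitatory sums and at 0 in 13 of 15 Sst and all 13 Pvalb sums. Btg2 was at 0, 41.6 and 145 CPM in excitatory sums and at 0 in 11 of 15 Sst and 12 of 13 Pvalb sums. Both were called. The clock gene Per1 was at 13.9, 55.3 and 407 CPM in excitatory, 0, 18.4 and 108 CPM in Sst and 0, 27.95 and 95.02 CPM in Pvalb sums. The calls of Per1 and Dusp1 were lost without the sums of 6 and 4 of the 16 constructs in turn, with adjusted p up to 0.0925 and 0.0996.

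**Figure D4:**
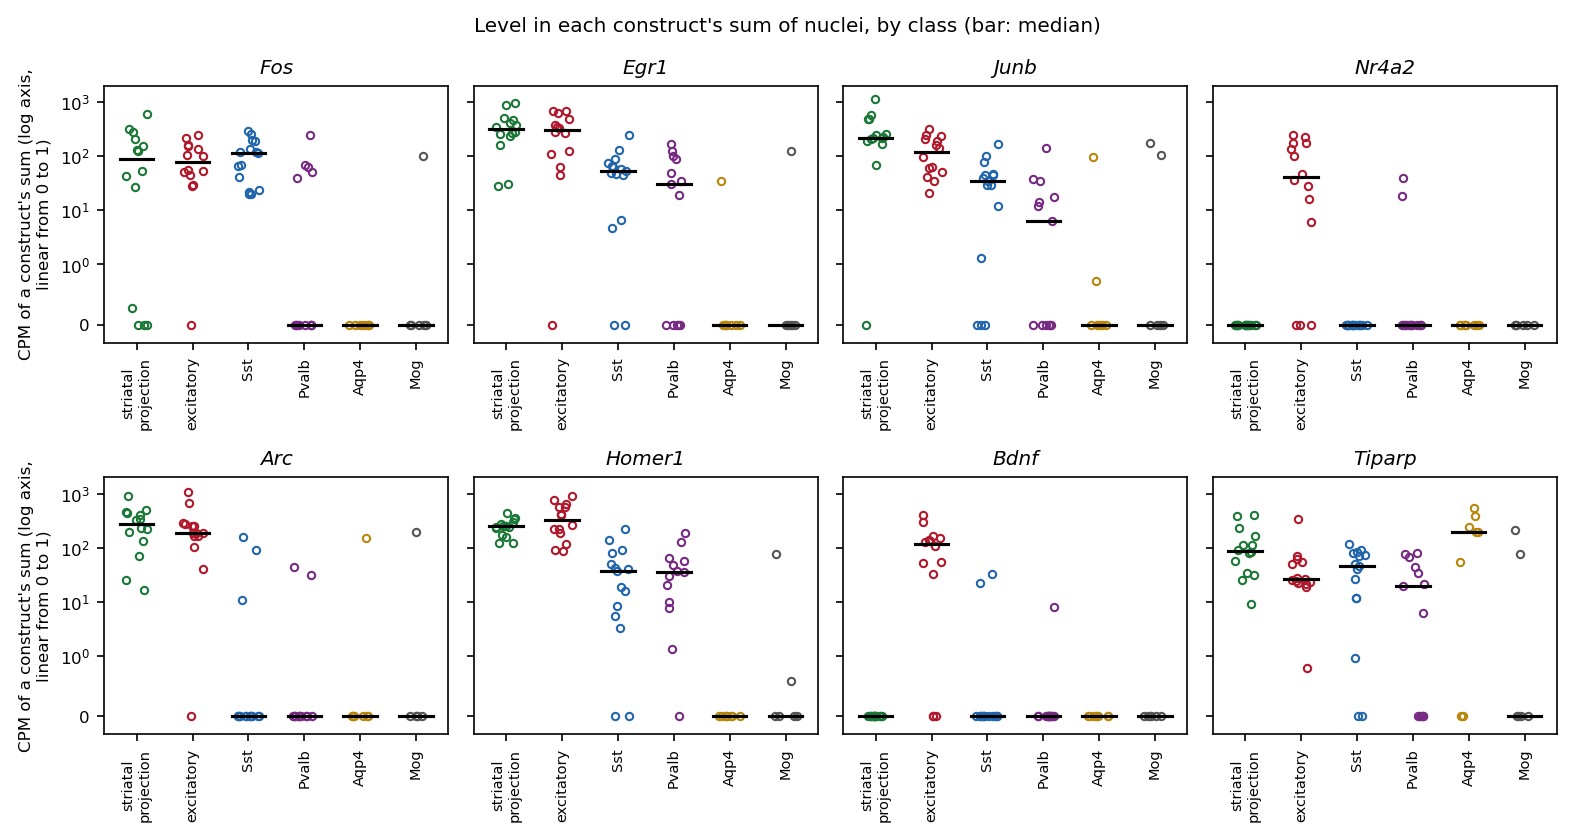
CPM of Fos, Egr1, Junb, Nr4a2, Arc, Homer1, Bdnf and Tiparp (y axes, log scale, linear from 0 to 1) in each construct's sum (points) of the 6 classes (x axes), with the median as a bar. Nr4a2 and Bdnf lie at 0 in all 14 striatal sums, and Homer1 lies at 0 in all 8 Aqp4 sums.

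Library pool moved with this count. Without S40317, 10 of the 23 members were called (Arc, Bdnf, Dusp6, Egr3, Egr4, Gadd45b, Homer1, Ier5, Junb and Nr4a1), and no other. Without S40325, 20 of the 23 were called, and without S40327 15 of them and Fos. Within S40325 alone 4 were called (Arc, Dusp6, Egr4 and Ier5; 1.42% of all genes), with 28 of 32 members above 0 and a median of 4.05. Within S40327 alone 2 were called (Arc and Nr4a1; 0.857% of all genes), with 21 of 23 above 0 and a median of 3.29. Without all nuclei over 0.3% mitochondrial reads 16 of the 23 were called. In the same comparison 5 of 11 mitochondrially encoded genes tested were higher in excitatory nuclei, where the 13 such genes summed to 8.24, 770 and 20040 CPM against 0, 173 and 13760 CPM in Sst and 0, 169 and 29950 CPM in Pvalb sums, and no heat shock gene was called. The 7 astrocyte markers summed to 148, 371 and 851 CPM in excitatory sums against medians of 6.49 CPM in Sst and 0 in Pvalb sums. A list of 7 endothelial and mural genes was under 20 CPM in every Sst sum and reached 10550 CPM in 1 excitatory sum. The part of these in the members' levels was not tested.

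Striatal projection nuclei had higher levels than interneurons of 20 members and a lower level of none, where 15.2% of all genes were called, 9.12% higher and 6.03% lower. Of these, 10 were early transcription factors and 10 effectors, and 27 of 31 members tested were above 0, with a median log2 fold change of 3.27 against 0.07 over all genes. This comparison shares its interneuron sums with the one above. The 7 oligodendrocyte markers summed to a median of 556 CPM in striatal sums against 178 CPM in Sst and 91.8 CPM in Pvalb sums, and the astrocyte and the endothelial and mural lists reached 2437 and 2289 CPM in single striatal sums; their part in the members' levels was not tested. Among the early transcription factors Egr4 was at 6.62, 128 and 501 CPM in striatal sums and was read in each of the 14, a pooled ratio of 42.9 to interneurons (edgeR adjusted p = 1.4e-10). Egr3 was at 0, 54.7 and 447 CPM (8.75 ± 1.12, edgeR adjusted p = 1.2e-08). Egr2 was at 0, 12.7 and 490 CPM (8.21 ± 1.22, edgeR adjusted p = 2.8e-07), and was at 0 in 4 striatal sums and in 26 of 28 interneuron sums. All 4 Egr genes were called, and Egr1, at 28.6, 319.9 and 989 CPM, was read in every striatal sum (3.14 ± 0.66, edgeR adjusted p = 0.00018; higher in 13 of 14 constructs).

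Junb was the striatal member with the highest level per kilobase of exon, 138 CPM per kb, against 61.4 in excitatory nuclei. Its sums were at 0, 222 and 1132 CPM (4.03 ± 0.63 above interneurons, edgeR adjusted p = 3.7e-07). Nr4a1 was at 11.02, 98.8 and 662 CPM (4.38 ± 0.74, edgeR adjusted p = 2.3e-06) and Nr4a3, also called, at 0, 4.58 and 136 CPM. Fosb was at 0 in 8 of 14 striatal sums and reached 69.5 CPM, and was called against interneuron sums that were all at 0. Npas4 was at 0, 26.7 and 179.5 CPM (4.48 ± 0.90, edgeR adjusted p = 0.00011). Fos, at 0, 89.8 and 595 CPM, was again not called (1.18 ± 0.78, edgeR adjusted p = 0.37).

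Of the effectors, Arc was at 16.6, 280.3 and 921 CPM and was higher than in interneurons in all 14 constructs (7.26 ± 0.77, edgeR adjusted p = 5.6e-13). Homer1 was at 121, 249 and 433 CPM, so its lowest striatal sum lay above the median of both interneuron classes (3.27 ± 0.50, edgeR adjusted p = 2.9e-07; 14 of 14 constructs). Gadd45b, of a family that responds to stress and to neuronal activity, was at 0, 45.2 and 103 CPM (4.68 ± 0.86, edgeR adjusted p = 1.4e-05). Tiparp, of the poly(ADP-ribose) polymerase family, was at 9.14, 87.2 and 404 CPM against 0, 45.6 and 120 CPM in Sst and 0, 19.7 and 81 CPM in Pvalb sums. Arl4d, a small GTPase of the ARF family, was at 0, 91.4 and 568.4 CPM against 0, 24.8 and 228 CPM in Sst and 0, 4.57 and 70.8 CPM in Pvalb sums. Tiparp, Arl4d and Btg2 were called, but their calls were lost without 1, 4 and 5 of the 16 constructs in turn, with adjusted p up to 0.0516, 0.0997 and 0.103.

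The striatal counts moved with the 2 pools that hold striatal nuclei. The same 20 members were called without nuclei over 0.3% mitochondrial reads, and 19 of them without S40317. Without S40325 the number was 13, all among the 20, and without S40327 it was 14, of which 12 were among the 20 and 2, Ier2 and Jun, were lower. Within S40325 alone 8 were higher and Ier2 lower (4.30% of all genes called), and within S40327 alone 9 were higher (3.91% of all genes called). In both pools Arc, Egr2, Egr3, Egr4, Homer1 and Junb were among them.

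Set directly against each other, excitatory and striatal nuclei differed in 4 members, all higher in the excitatory class, where 6.87% of all genes were called and 4.92% higher. Bdnf was at 0 in all 14 striatal sums and higher in the excitatory class (edgeR adjusted p = 5.3e-06, higher in 9 and lower in 0 of 12 constructs). Nr4a2 was also at 0 in all 14 striatal sums and higher in the excitatory class (edgeR adjusted p = 0.00015, higher in 9 and lower in 0 of 12). No read of either gene was found in any of 214 striatal nuclei, which allows a share of up to 1.40%, while Bdnf was read in 30.6% and Nr4a2 in 24.6% of excitatory nuclei. The early response gene Ier2 was at 0 in 13 of 14 striatal sums and at 0, 18.8 and 75.8 CPM in excitatory sums (5.48 ± 1.53, edgeR adjusted p = 0.015); without SYFP2-H2B-3xsmOPT-BC, the fitted value was 10.40. Klf6, a Krüppel-like factor, was at 0, 0 and 43.7 CPM in striatal and 0, 51.6 and 268 CPM in excitatory sums (3.15 ± 0.9983, edgeR adjusted p = 0.035). The Klf6 call was lost without any 1 of 8 constructs, with adjusted p up to 0.109.

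The other members straddled 0 in this comparison: 19 of 31 were above it, with a median of 0.28 against 0.30 over all genes. Arc (262 and 247 CPM over all reads), Fos (109.7 and 107 CPM), Egr1 (327 and 318 CPM) and Nr4a1 (151 and 123 CPM) had pooled levels within 1.23-fold. Arl4d (19.8 and 120.1 CPM), Egr2 (18.8 and 64.1 CPM), Egr4 (37.2 and 109.5 CPM), Gadd45g (22.99 and 92.1 CPM) and Tiparp (48.5 and 114 CPM) had the larger value in striatal nuclei, and none passed the test. With at least 5 nuclei per sum, or with nuclei of at least 2000 genes, Arl4d, Egr2 and Gadd45g were called lower in excitatory nuclei, for 7 and 8 members called in all. Without nuclei over 0.3% mitochondrial reads the median over 29 members was -0.80, with 8 above 0, the same 4 members higher and Arl4d lower. Within S40325 and within S40327 alone no member was called, where 0.927% and 0.353% of all genes were, and the medians were 0.18 and -1.16.

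Of the effectors called higher than in interneurons, Bdnf, Dusp1, Per1 and Ptgs2 passed in the excitatory class alone and Arl4d, Gadd45g and Tiparp in the striatal class alone. Of the early transcription factors, Csrnp1 and Nr4a2 passed in the excitatory class alone, and 17 members passed in both classes. Of these 9, Bdnf and Nr4a2 passed the direct test between the classes. Drd1 and Drd2 are the receptors that mark the direct and indirect pathway. Within the striatal class, nuclei with Drd1 at 20 CPM or more and Drd2 under 20 (104) were set beside those with the reverse (58), without a test. Homer1 was read in 74.04% (95% exact binomial interval 64.5 to 82.1) of Drd1 nuclei and 74.1% (60.96 to 84.7) of Drd2 nuclei, Egr1 in 61.5% (51.5 to 70.9) and 46.6% (33.3 to 60.1), and Fos in 10.6% (5.4 to 18.1) and 20.7% (11.2 to 33.4). These intervals overlap and cover counting error only. The pooled levels of Drd1 and Drd2 nuclei were 63.8 and 185 CPM for Fos, 77.3 and 179 CPM for Nr4a1, and 343 and 373 CPM for Egr1.

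Between the 2 interneuron classes no member was called at edgeR's adjusted threshold, where 1.97% of all genes were, 1.38% higher and 0.589% lower in the Sst class; 5 members had an unadjusted p under 0.05 and DESeq2 called 4. Fos was the member with the most reads in Sst nuclei among the early transcription factors: it was at 19.9, 113 and 294 CPM and in every one of the 15 Sst sums. In Pvalb nuclei it was at 0 in 8 of 13 sums. It was read in 21.1% (95% exact binomial interval 13.98 to 29.7) of Sst nuclei and 7.61% (3.11 to 15.1) of Pvalb nuclei. The log2 difference was 2.42 ± 0.99 (p = 0.017, edgeR adjusted p = 0.26), with Fos higher in the Sst class in 8 and lower in 4 of 12 constructs. It passed the threshold without nuclei over 0.3% mitochondrial reads (3.95 ± 1.09, edgeR adjusted p = 0.033) and within S40325 alone (edgeR adjusted p = 0.0011), but not within S40327 alone (1.86 ± 2.21). Per kilobase of exon, Fos had the highest pooled level of all members in Sst nuclei, 46.1 CPM per kb, close to the 46.7 of excitatory and the 45.7 of striatal nuclei.

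Members were called lower in both glial classes, as were many genes. In the Aqp4 class, whose 7 astrocyte markers summed to a median of 11950 CPM, 9 members were lower and 1 higher than the mean of the 4 neuronal classes, where 38.6% of all genes were called, 5.43% higher and 33.2% lower, so the 9 of 31 members lower are no larger a share than that of all genes. The median over 31 members was -4.33, or -4.67 with genes at 0 set to a floor of 3 reads, against -2.35 over all genes. RLE size factors moved the median of all genes to -1.84 and called 8 members lower and 2 higher. A list of 4 neuronal genes was at 0, 198 and 598 CPM in the Aqp4 sums and at 2165, 4337 and 10420 CPM in the excitatory ones, and all 7 cortical excitatory markers were at 0 in Aqp4 and Mog sums. Homer1 was at 0 in all 8 Aqp4 sums and called lower (edgeR adjusted p = 7.2e-09), as was Fos (edgeR adjusted p = 9.3e-05). Both were read in 0 of 35 nuclei, which allows a share of up to 8.57%. Per1 was at 0 in 6 of 8 sums (-5.25 ± 1.14, edgeR adjusted p = 0.00013), Egr1 in 7 of 8 (-5.49 ± 1.23, edgeR adjusted p = 0.00022) and Junb in 6 of 8 (-4.72 ± 1.22, edgeR adjusted p = 0.0013). These fits rest on few reads: without 3xBORG-SYFP2-H2B-BC the fitted value of Egr1 was -11.83, and without SYFP2-10aa-H2Bmod-BC that of Junb was -8.49, both still called. Nr4a1, Ier5, Arl4d and Npas4 were also lower.

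Jun, the partner of Fos in AP-1, was the single member called higher in the Aqp4 class: it was at 0, 63.8 and 201 CPM there, with 4 of 8 sums at 0, and had a median of 0 in striatal, Sst and Pvalb sums (2.77 ± 1.13, edgeR adjusted p = 0.044). It was higher in 4 and lower in 3 of 8 constructs, lost its call without any 1 of 7 constructs (adjusted p up to 0.17) and turned to -0.60 with at least 5 nuclei per sum and to -5.12 without S40327. Gadd45g, at 0, 146 and 306 CPM, and Tiparp, at 0, 195 and 542 CPM, were the members with the most reads per kilobase in the Aqp4 class (123 and 52.7 CPM per kb), and neither was called. The Aqp4 calls of Arl4d and Npas4 were lost without 7 and 2 of the 16 constructs in turn. With at least 5 nuclei per sum, 1 member was called.

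In the Mog class 13 members were lower and none higher, where 36.6% of all genes were called, 4.19% higher and 32.4% lower. The median over 31 members was -4.79, or -4.91 with genes at 0 set to a floor of 3 reads, against -2.77 over all genes (-2.27 with RLE size factors). Homer1 was at 0, 0 and 77.97 CPM (-5.54 ± 1.06, edgeR adjusted p = 2.1e-05) and Egr1 at 0 in 5 of 6 sums (-4.91 ± 1.36, edgeR adjusted p = 0.0029). Both stayed called without any 1 construct, with fitted values down to -9.54 for Homer1 (without 3xBORG-SYFP2-H2B-BC) and -11.67 for Egr1 (without 3xU7snRNAOPT-SYFP2-H2B-BC). Dusp6 and Ier5 were read in 0 of 37 nuclei and were called lower. Gadd45g, Klf6 and Btg2 were at 0 in all 6 sums and called lower, but the sums hold 31 of the 37 nuclei, and 1, 2 and 1 of the 37 had reads of them. Nr4a1 had 1 read in these sums and was called lower. The calls of Fos, Npas4, Per1, Btg2 and Gadd45b were lost without 5, 5, 4, 1 and 1 of the 16 constructs in turn. Arl4d, at 0, 139 and 300.5 CPM, had the highest level per kilobase in the Mog class (84.2 CPM per kb) and was not called, and Jund, at 10.4, 19.9 and 56.7 CPM, was read in every sum. In sums of nuclei, fewer nuclei with a transcript and less of it per nucleus cannot be told apart.

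The genes that carry the signal to the members were described by a list of 30: CREB, SRF and Mef2 factors with their cofactors, and MAP kinases, CaM kinases and calcineurin subunits. All 30 were tested. In excitatory nuclei 7 were higher than in interneurons and none lower, where 8.34% of all genes were higher. Ppp3ca, the catalytic subunit of calcineurin (985 against 302 CPM; 2.002 ± 0.31, edgeR adjusted p = 5.3e-07), Camk4, a nuclear CaM kinase (72.2 against 10.2 CPM; 3.82 ± 0.60, edgeR adjusted p = 7.2e-07) and Mrtfb, an SRF coactivator (248 against 58.6 CPM; 2.40 ± 0.43, edgeR adjusted p = 1.6e-05), had the smallest p, each in 14 of 14 constructs. In striatal nuclei 8 were higher and 1 lower, where 9.12% and 6.03% of all genes were. The same 3 led, with Ppp3ca at 2.52 ± 0.30, Camk4 at 4.76 ± 0.61 and Mrtfb at 2.47 ± 0.43, and Mef2c was lower (141 against 668 CPM; -2.09 ± 0.52, edgeR adjusted p = 0.0021). Mef2c was the one gene of the list called between excitatory and striatal nuclei (2.94 ± 0.59, edgeR adjusted p = 0.00026; higher in 12 of 12 constructs). In the Aqp4 class 18 of the 30 were lower and in the Mog class 17, where 33.2% and 32.4% of all genes were, with Camk2b and Mef2c among the 3 smallest p in both. None was called between Sst and Pvalb nuclei or between pools.

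Between library pools within a class, 2 members passed the test, both in 1 comparison of excitatory nuclei. In striatal nuclei no member was called between S40325 and S40327, as was no gene of 9229 tested (0.0%). Only 2 of 23 members had an unadjusted p under 0.05 and DESeq2 called none. Those were Nr4a1, at 0, 62.4 and 123 CPM in 6 S40325 sums and 0, 172 and 986 CPM in 11 S40327 sums (-1.94 ± 0.62, edgeR adjusted p = 0.55), and Nr4a3. In Sst nuclei none of 10 members tested was called (0.0647% of all genes were, 0.0259% higher and 0.0388% lower). The 3 with an unadjusted p under 0.05 were Junb (2.24 ± 0.75, edgeR adjusted p = 0.29), Fos and Tiparp, and DESeq2 called none. Fos was at 0, 149 and 328 CPM in 8 S40325 sums and at 0, 15.95 and 255 CPM in 12 S40327 sums, with overlapping ranges. In excitatory nuclei none of 21 members was called between S40325 and S40327 (0.0571% of all genes were). A single one, Dusp6, had an unadjusted p under 0.05, and DESeq2 called none.

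Between S40317 and S40327, 2 of 24 members tested were higher in the excitatory nuclei of S40317 and none lower, where 2.61% of all genes were called, 2.05% higher and 0.561% lower. Nr4a3 was at 0, 81.03 and 251 CPM in 8 S40317 sums and at 0 in all 7 S40327 sums (edgeR adjusted p = 0.0089), while 1 of 33 S40327 nuclei, left out of the sums, had reads. Dusp6 was at 115, 214 and 575 CPM in S40317 and 0, 13.4 and 160.4 CPM in S40327 (2.86 ± 0.71, edgeR adjusted p = 0.018; higher in 4 of 4 shared constructs). With construct as a block no member was called. In the 4 sums of S40325, Nr4a3 was at 0, 0, 0.599 and 22.1 CPM, and 4 of 47 nuclei had reads. Dusp6 was at 52.4, 169, 201 and 248 CPM in these sums. The ranges of both genes in S40325 overlapped those of S40317. Homer1 (255, 657 and 965.5 against 53.5, 187 and 543 CPM) and Egr1 (91.1, 573 and 898 against 0, 129 and 571 CPM) missed the threshold (edgeR adjusted p = 0.055 and 0.076). Over the 24 members the median was 1.18, with 20 above 0, against 0.10 over all genes, and 10 had an unadjusted p under 0.05.

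**Figure D5:**
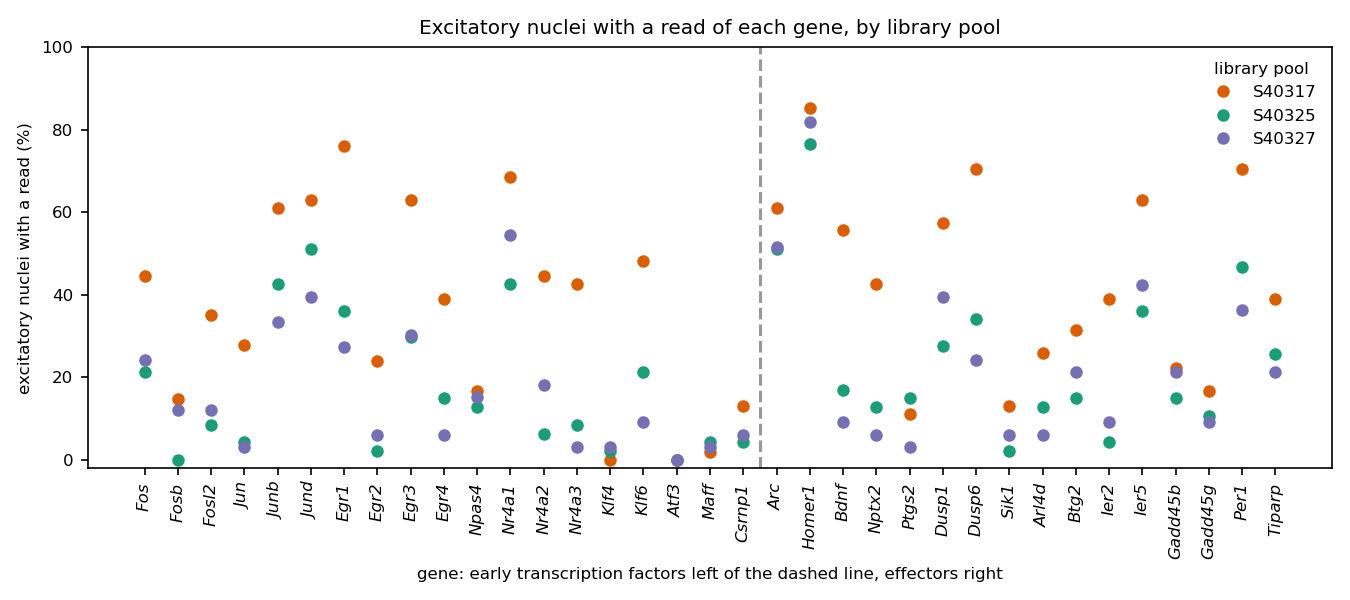
Percent of excitatory nuclei with at least 1 read of each member (y axis) in pools S40317 (54 nuclei), S40325 (47) and S40327 (33), members ordered by their list. The points of S40317 lie above those of the other pools for most members.

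Mitochondrial reads split the S40317 excitatory nuclei. The 28 nuclei with more than 0.3% had reads of 20 members at the median, 6858 genes and scores of 3.12 (early transcription factors) and 3.85 (effectors). The other 26 nuclei of the pool had 8 members, 2968 genes and scores of 1.14 and 1.95. Nuclei at or under 0.3% in S40325 (46) and S40327 (33) had 6 members at the median each, and scores of 0.95 and 1.64 and of 0.70 and 1.53. All 7 mitochondrially encoded genes tested were higher in S40317 than in S40327 (median log2 fold change 7.40), as were 2 of 11 heat shock genes. Without the nuclei over 0.3% no member was called, and 1 gene in all was. In that fit of fewer nuclei 14 of 18 members tested were above 0, with a median of 0.85 against -0.03 over all genes. The part of cytoplasmic RNA, depth or stress in the members' levels in this pool was not tested. The count of 2 members also moved with single sums. It was 1 without the S40317 sum of 3xBORG-SYFP2-H2B-BC, SYFP2-H2B-3xBORG-BC, SYFP2-H2B-3xU7snRNAOPT-BC, SYFP2-H2B-BORG-BC or U7snRNAOPT-SYFP2-H2B-BC. It was 4 without that of 3xsmOPT-SYFP2-H2B-BC or the S40327 sum of 3xU7snRNAOPT-SYFP2-H2B-BC, and 5 without the S40327 sum of SYFP2-H2B-3xBORG-BC.

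The reporter's RNA element did not move a member past the threshold. Neither its place (after against before SYFP2-H2B, 6 pairs of constructs) nor its copy number (3 against 1, 4 pairs) gave a called member, as no gene was called in either (0.0% of 13620 and of 13834). DESeq2 called none either. No member had an unadjusted p under 0.05 for the place, and 1 did for the copy number: Btg2, at 41.5 against 15.6 CPM (1.46 ± 0.61, edgeR adjusted p = 0.9999), higher in 4 of 4 pairs. These sums hold all kept nuclei of a construct, whose classes differ in share.

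Members were read together in some nuclei, without being equally shared. Among 21 members read in at least 20% of excitatory nuclei, Spearman's correlation over 134 thinned nuclei had a median of 0.23 over 210 pairs and a highest value of 0.53, for Fosl2 and Nr4a2. Among 11 such members in 212 thinned striatal nuclei the median over 55 pairs was 0.19, with 0.52 for Junb and Arc and 0.47 for Egr1 and Arc. The nuclei share libraries, pools and classes, so these are descriptions. In striatal nuclei Arc was read in 50.0% of nuclei with Egr1 and in 12.2% of those without, whereas Homer1 was read in 79.7% of nuclei with Arc and 71.3% of those without. A few nuclei carried much of the level of each gene: the 10 highest nuclei held 63.97% of the summed CPM of Fos and 21.4% of that of Homer1 in the striatal class, and 57.1% and 35.2% in the excitatory class.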

How the data were processed

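Reads had been mapped by the submitters (STAR 2.7.2a and mm10 are named in the submitters' processing notes); the counter and its use of strand are not given in the sources used here. The authors deposited raw read counts per gene and nucleus, and 1597 columns that match no nucleus here were not used. Of 32285 gene identifiers, 32158 were matched to symbols of GENCODE M21. Counts were summed per class and construct (or construct and pool) and tested with edgeR 4.0.16 (quasi-likelihood, TMM, filterByExpr, Benjamini-Hochberg over all genes tested, threshold 0.05; R 4.3.3), with construct as a block between classes. SE is the log2 fold change divided by the square root of F. Reads amplified from 1 nucleus are not independent, so no smallest fold is given for a single gene with 0 reads. The medians of the glial comparisons are also given with genes at 0 set to a floor of 3 reads. The fits between classes, between pools and between constructs were each run on simulated data for 1 comparison. These were excitatory minus striatal, S40317 minus S40327 in excitatory nuclei, and element after minus before SYFP2-H2B. The other comparisons were not simulated. No 2 nuclei were duplicates (highest correlation 0.733). Named were 20 members fixed by name, and every member called (the 10 smallest p where more were). Pathway genes named were the 3 smallest p among those called. The members and lists were chosen with earlier results of these data known. DESeq2 1.42.0, other scaling, filters, units and pools were tried as alternatives. No animal is labelled, so constructs may share animals. Overlapping and near-identical genes may share reads.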

Additional observations from a re-analysis of the deposited data

Results flagged for a closer look

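One construct stood apart in the Mog class. The median early transcription factor score of SYFP2-H2B-U7snRNAOPT-3'box-BC was 0.552 over all pools, with the nearest of the 6 constructs at 0.265, and 0.552 within S40327, with the nearest at 0.261. Both values are of the same construct and largely the same nuclei, so they are 1 observation; the 22 groups examined overlap, and chance gives such a value in about 1 in 20 separate groups. Nuclei outside the class comparisons also held members. At least 10 members were read in 13 of 92 nuclei that met several class rules (14.1%) and in 6 of 117 that met none (5.13%).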

How the results depend on the processing

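Counts of members called moved as follows; unless a cause is named, the cause was not tested. Between excitatory and striatal nuclei (4) they were 2 with DESeq2, 7 with at least 5 nuclei per sum, 8 with at least 2000 genes, 1 with sums per construct and pool, 2 without S40325, 2 without S40327, and 0 within S40325 or S40327 alone, where fewer samples entered. Between excitatory nuclei and interneurons (23) they were 10 without S40317, 4 within S40325 and 2 within S40327. Between striatal nuclei and interneurons (20) they were 13 without S40325, 9 within S40325 and 9 within S40327. Between Sst and Pvalb (0) they were 4 with DESeq2, 2 with no construct block, 2 with nuclei of several classes kept, and 1 without S40327, within S40325 or without nuclei over 0.3% mitochondrial reads. For Aqp4 (10) they were 18 with DESeq2, 1 with at least 5 nuclei, 5 per construct and pool, 6 without S40317, 6 without S40325, 4 without S40327 and 5 within S40327. For Mog (13) they were 7 with at least 5 nuclei and 8 within S40327. Between Sst pools (0) it was 1 with no filter. Between S40317 and S40327 (2) they were 1 with DESeq2, 4 with no filter, 4 with nuclei of several classes kept, 0 without nuclei over 0.3% mitochondrial reads and 0 with a construct block. Leaving out 1 construct or sum gave 3 to 5, 20 to 23, 17 to 20 and 0 to 0 for the neuronal contrasts in that order, 8 to 11 for Aqp4, 10 to 13 for Mog, 1 to 5 between S40317 and S40327, and 0 to 0 elsewhere. With a pseudocount of 10, less its floor, scores were 0.666 for striatal effectors, 1.04 for excitatory effectors, 0.301 for Sst effectors and 0.099 for Mog early transcription factors; Mog effectors were at 0.934 with at least 2000 genes. Single members reversed in 3 cases: Fosb, excitatory minus interneurons, at -0.34 within S40325, and Jun, Aqp4 class minus neurons, at -0.60 with at least 5 nuclei and -5.12 without S40327. The other settings kept 875 single-member results on their side of the threshold and took 237 below it. Over all genes, calls ranged from 97 to 2005 (excitatory minus interneurons), 443 to 2661 (striatal minus interneurons), 40 to 1414 (excitatory minus striatal), 11 to 1033 (Sst minus Pvalb), 826 to 8229 (Aqp4), 2746 to 7865 (Mog), 1 to 463 (S40317 minus S40327), 2 to 58, 0 to 65 and 0 to 56 (other pools: excitatory, Sst, striatal), 0 to 79 (place) and 0 to 85 (copies). Mog without S40327, either glial class with at least 2000 genes, any class contrast within S40317 and a construct block between the other excitatory pools could not be fitted. The within-pool, single-construct and mitochondrial settings were chosen after seeing the data. No paired analysis was possible because the numbers in the titles only name nuclei, so that the blocks used are constructs. The number of nuclei limits what can be said of low members: 0 of 35 Aqp4 nuclei, taken as independent, still allows a share of 8.57%.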

Other observations

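Nuclei that met more than 1 class rule had reads of 3 members at the median and of up to 21. Of these, 39 met the striatal and Sst rules, and 3 of them had reads of at least 10 members. Another 15 met the excitatory and Pvalb rules (2 with at least 10 members) and 9 the excitatory and Sst rules (3 with at least 10). Their median scores were 0.508 for early transcription factors and 0.821 for effectors. Nuclei that met no rule had reads of 2 members at the median and of up to 15, with median scores of 0.292 and 0.493.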
